A study of Mus musculus with 2 samples.

Results

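Kinesins and dyneins are the motor proteins that move along microtubules, and the genes examined here are those of both superfamilies in testes of mice with and without *Bcas2* in the germ line. They were chosen by name alone, as protein-coding genes of GENCODE M21 (GRCm38) whose symbols begin with Kif or Kifc and a number, Dnah and a number, Dnal and a number or i, or Dync1 or Dync2. Of the 39695 gene entries in the deposited data, 67 met this rule, 43 of them kinesins and 24 dyneins. One further gene with a matching symbol, *Dnah7c*, has no row and was not analysed here. *Kif1bp* carries a matching symbol but encodes a kinesin-binding protein without a motor, and it was kept among the kinesins as the rule requires.

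The RNA-seq data comprised 1 library of whole testes from control males and 1 from *Bcas2F/-;Vasa-Cre* males, all 9 days old (P9). Control males had 1 floxed and 1 deleted allele of *Bcas2* and no Cre, and mutant males had these alleles together with *Vasa-Cre*, a transgene whose recombinase acts in germ cells and removes the floxed allele there. Somatic cells of the mutant testis therefore keep the floxed allele, and the RNA of germ and somatic cells is mixed in each library. The strain is labelled C57BL/6, whereas the study's methods describe a mixed background of 129 and C57BL/6, and the number of mice behind each library is not given in the sources used here. The depth behind the RPKM values was 19918750 reads (control) and 19331687 reads (mutant). *Bcas2*, the targeted gene, had an RPKM (reads per kilobase of gene and per 1000000 counted reads) of 39.5 in control and 25.7 in mutant testes, from 1410 and 888 reads.

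Kinesins mostly walk towards the plus ends of microtubules and carry vesicles, organelles and ciliary components, and a large subset of them builds and operates the mitotic and meiotic spindle. Dyneins move towards minus ends. Cytoplasmic dynein 1 carries most minus-end-directed cargo, cytoplasmic dynein 2 returns material from the tips of cilia, and the axonemal dyneins bend cilia and sperm tails. In the testis, spindle motors are needed by dividing spermatogonia and by meiotic cells, and the axonemal motors by spermatids as they form their tails. At P9 the seminiferous tubules hold Sertoli cells, spermatogonia and the first cells entering meiosis, and spermatids have not yet formed.

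The difference between the genotypes was expressed as the log2 ratio of RPKM + 1 in *Bcas2F/-;Vasa-Cre* over RPKM + 1 in control testes, which understates differences of low genes. It was computed where RPKM averaged at least 1 over the 2 libraries. With 1 library for each genotype there was no replicate to set a difference against, and no test of genotype was made. The intervals given are 95% Clopper-Pearson intervals of the log2 ratio of RPKM without the added 1, obtained from whole reads recovered from the RPKM values. They cover counting error only, not the spread between animals or libraries, and reads are not independent molecules.

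On RPKM + 1, no kinesin or dynein with a mean RPKM of at least 1 was past 1.5-fold in either direction. Of the 67 genes, 50 reached a mean RPKM of 1, namely 39 kinesins and 11 dyneins, and 0 of these passed 1.5-fold downwards and 0 upwards. Among all 14831 genes at this level, 1.69% were past 1.5-fold lower and 1.57% past 1.5-fold higher in the mutant library. Of the 13010 protein-coding genes at this level, 160 were past 1.5-fold lower and 51 higher. With shares this small, 0 of 50 is close to the background and does not set the motor genes apart. The log2 ratio of 22 of the 50 genes lay within 0.1 of 0. Without the added 1, *Kif19a* had a log2 ratio of −1.01 and so passed 1.5-fold. Some genes below a mean RPKM of 1 also passed it on that scale, such as *Dnah9* (−0.88) and *Kif12* (3.37). By role, the ratio was below 0 for 10 of 13 kinesins of cell division, 8 of 9 kinesins of cilia and 5 of 14 kinesins of vesicle and organelle transport, beside 46.3% of all genes. The difference between roles was not tested.

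**Figure D1:**
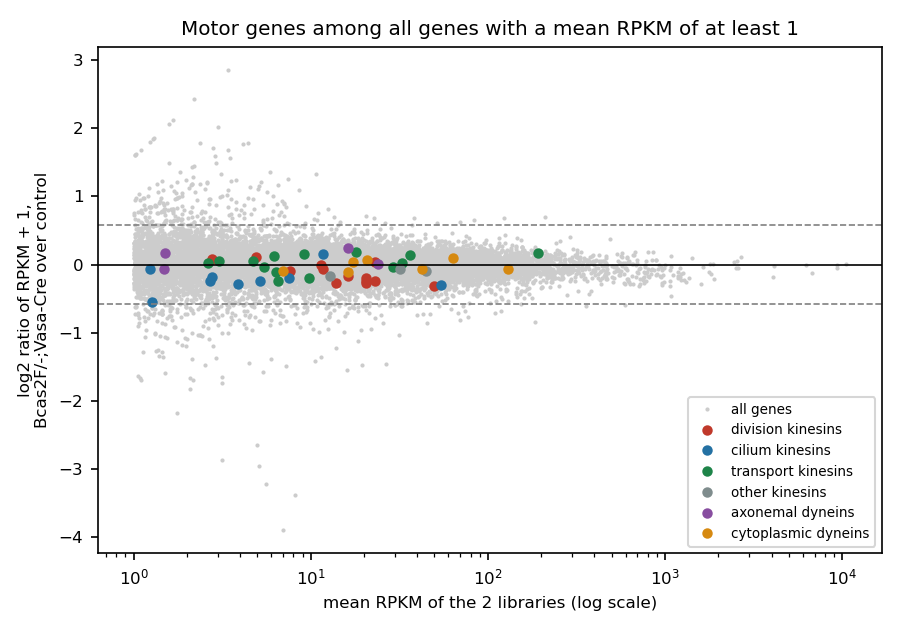
Log2 ratio of RPKM + 1 in Bcas2F/-;Vasa-Cre over control testes (vertical axis) against mean RPKM on a log scale (horizontal axis) for genes that averaged at least 1 RPKM. Grey points are the 14831 genes, coloured points are the 50 kinesins and dyneins by role, and dashed lines mark 1.5-fold; every coloured point lies between the dashed lines.

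For the kinesins the median was −0.10 on the log2 scale, and for all genes it was 0.02. Below 0 were 26 of 39 (66.7%), compared with 46.3% of all genes. The counting interval lay wholly below 0 for 14 (35.9%) and wholly above 0 for 5 (12.8%), where the shares over all genes with recovered reads were 17.9% and 19.9%. At 10 to 100 RPKM, the range of most of the abundant kinesins, these shares over all genes were 20.2% and 24.6%. The summed RPKM of the 43 kinesins was 783 in control and 759 in mutant testes. Without *Kif5b*, the most abundant of them, the sums were 602 and 554.

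For the dyneins the median was 0.01, with 5 of 11 (45.5%) below 0. The interval lay below 0 for 1 and above 0 for 2 of them, and the summed RPKM of all 24 was 346 in control and 344 in mutant testes. The dynein median took the other sign when the median of all genes was set to 0, and it has no settled direction.

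Levels differed far more between genes than between genotypes. *Kif5b* (chr18:6201002-6242174 in GENCODE M21), the ubiquitous heavy chain of kinesin-1, had the highest RPKM of all 67 genes in both libraries, 182 in control and 205 in mutant testes. It made up 23.2% of the summed kinesin RPKM in control and 27.0% in mutant testes. *Dync1h1* (chr12:110601452-110666945), the heavy chain of cytoplasmic dynein 1, was next with 134 and 128, and its share of the summed dynein RPKM was 38.7% and 37.1%. The kinesins after *Kif5b* were *Kif3a*, *Kif2c*, *Kif2a*, *Kif1b*, *Kif5c*, *Kif1bp* and *Kif1c*, with 29.7 to 60.6 RPKM in control testes. The gene lengths behind the RPKM values are not given in the sources used here, and levels of different genes depend on them. The length that gave whole reads for *Dync1h1* was 2322 bases, the mean over its 8 annotated transcripts, whereas its longest coding transcript has 14342, and for *Kif5b* these lengths were 2137 and 6032. If other lengths were used, the reads and with them the width of the intervals would differ, whereas the ratio between the libraries would not.

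**Figure D2:**
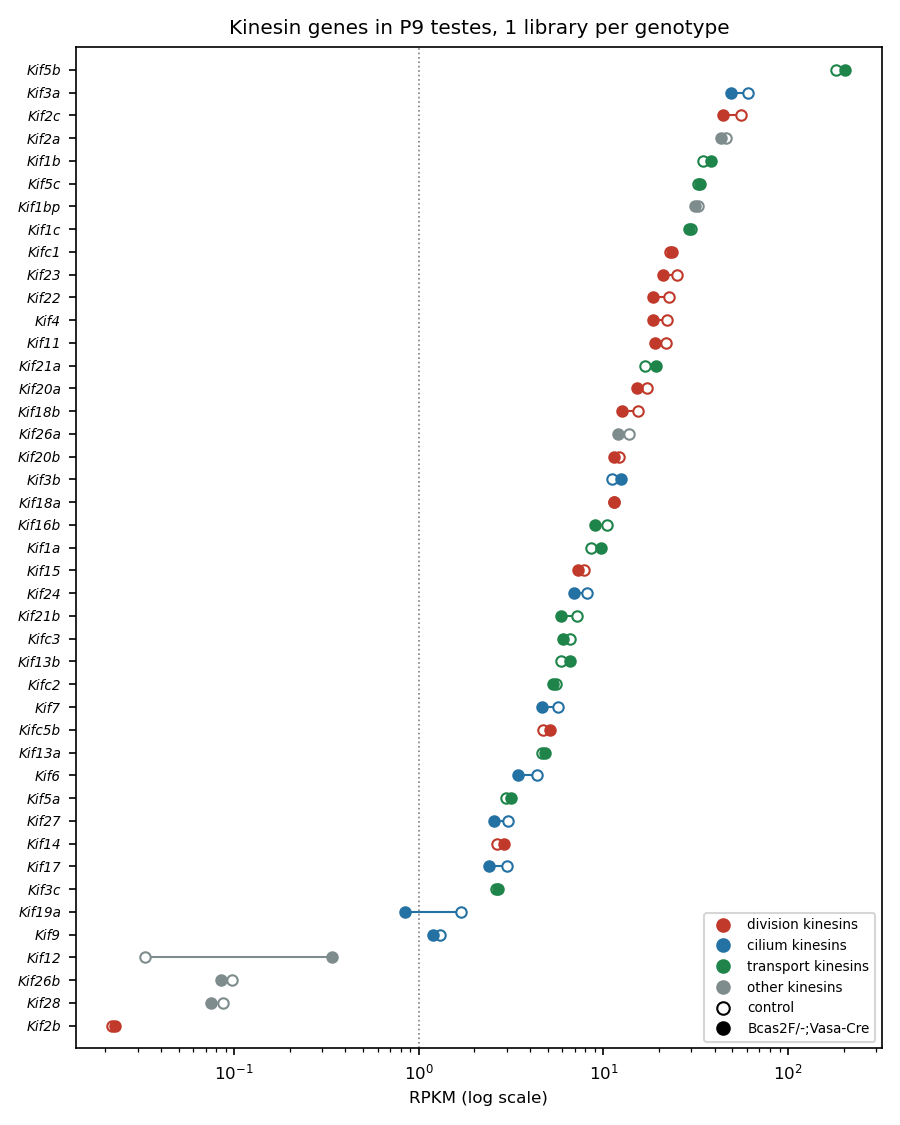
RPKM on a log scale (horizontal axis) of the 43 kinesin genes in the control library (open circles) and the Bcas2F/-;Vasa-Cre library (filled circles), ordered by mean RPKM and coloured by role, with a dotted line at 1 RPKM. Kif5b stands at the top, and the 4 genes under the line in both libraries are Kif12, Kif26b, Kif28 and Kif2b.

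The kinesins that work in cell division were as a group lower in the mutant library, each by less than 1.5-fold. Of 13 with a mean RPKM of at least 1, 10 were below 0 and 3 above, with log2 ratios from −0.32 to 0.11 and a median of −0.17. The counting interval lay below 0 for 7 of the 13 (53.8%) and above 0 for 0 of them, and the background shares for these are the 17.9% and 19.9% given above. Their summed RPKM was 242 in control and 211 in mutant testes. The 14th division kinesin, *Kif2b*, had 1 read in each library.

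*Kif2c* (chr4:117159639-117182639), whose product depolymerises microtubules at centromeres and corrects faulty chromosome attachments, had the lowest ratio of the group. Its RPKM was 55.5 in control and 44.4 in mutant testes, a log2 ratio of −0.32 (interval −0.44 to −0.20, 1291 and 1001 reads). Of the 3994 genes within 2-fold of its mean RPKM, 3.73% had a ratio at least as low.

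*Kif18b*, which shortens astral microtubules, followed with 15.4 RPKM in control and 12.6 in mutant testes (−0.27, interval −0.47 to −0.11). *Kif22*, a chromokinesin that pushes chromosome arms towards the spindle equator, had 22.6 and 18.6 RPKM (−0.27, interval −0.43 to −0.14). *Kif23*, the motor subunit of centralspindlin at the midzone of dividing cells, had 25.01 and 21.01 RPKM (−0.24, interval −0.35 to −0.15). All of these were lower in the mutant library by more than counting error.

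*Kif4*, a second chromokinesin, and *Kif11*, the motor that separates the spindle poles, had log2 ratios of −0.24 and −0.20, with intervals wholly below 0. The interval of *Kif20a*, which brings the chromosomal passenger complex to the midzone, reached up to −0.01 around a ratio of −0.17. Of the bases in its exons, 29.3% are shared with *Cdc23* on the opposite strand, and 15.1% of those of *Kif4* are shared with *Pdzd11*. Reads of *Kif11* could also come from the pseudogene *Gm15697*, which is 90.5% identical over 61.0% of its longest coding transcript. The library kit is not stated to keep strand, so reads on shared bases cannot be assigned with certainty.

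The other members were closer to equal. *Kif15* and *Kif20b* had log2 ratios of −0.10 and −0.07 with intervals that included 0. *Kif18a*, which damps the movements of aligned chromosomes, had 11.40 RPKM in control and 11.37 in mutant testes (−0.00, interval −0.16 to 0.16). *Kif14*, a motor of cytokinesis, had a ratio of 0.09 (interval −0.07 to 0.31).

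The minus-end-directed spindle motor *Kifc1* had 22.9 and 23.4 RPKM, and its near copy *Kifc5b* had 4.70 and 5.16, the highest ratio of the group (0.11, interval −0.12 to 0.39). The longest coding transcripts of the pair are 96.8% identical over 97.5% of *Kifc1*, so reads could have been assigned to either gene. Pooled, they had 925 reads in control and 936 in mutant testes, a log2 ratio of 0.06 (interval −0.07 to 0.19).

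The promoters of the division kinesins are shown because most of them share a short motif that the choice of genes did not use. TTTGAA is the core of the cell cycle genes homology region, a motif known from promoters that are most active in late cell cycle, and CCAAT is a common promoter box that is often found beside it. Both were searched on both strands in the RefSeq promoter windows (GRCm38.p6, 250 bases before to 50 bases after the annotated start), which were given for 54 of the 67 genes. TTTGAA was in the window of 11 of 13 division kinesins (84.6%), in 1 of 8 cilium kinesins and 1 of 8 transport kinesins (each 12.5%), and in 17.9% of all 32851 windows. These 13 are not the 13 whose ratios were described, because *Kif20a* had no window and *Kif2b* had one. Positions below are counted from the start as 1. TTTGAA and CCAAT were both present in 8 of 13 (61.5%) and in 6.95% of all windows. The related letters TTTAAA were in 2 of 13 (15.4%) and in 13.2% of all windows. A match says only that these letters are there. The sequences run 5′ to 3′ on the strand of the gene, with TTTGAA and CCAAT in capitals, or TTCAAA and ATTGG where the match is on the other strand.
Kif11, chr19:37376262-37376381, + strand, positions −120 to −1: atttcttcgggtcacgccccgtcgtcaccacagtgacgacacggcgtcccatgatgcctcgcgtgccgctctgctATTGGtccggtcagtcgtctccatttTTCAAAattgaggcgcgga
Kif22, chr7:127042420-127042449, − strand, positions −29 to 1: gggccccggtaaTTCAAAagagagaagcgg
Kif15, chr9:122951050-122951079, + strand, positions −31 to −2: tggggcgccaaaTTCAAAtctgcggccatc
Kif18b, chr11:102925104-102925133, − strand, positions −9 to 21: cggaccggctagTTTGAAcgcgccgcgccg
Kif23, chr9:61946780-61946809, − strand, positions −10 to 20: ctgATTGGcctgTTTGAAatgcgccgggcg
Kif20b, chr19:34922353-34922382, + strand, positions −5 to 25: gagccgccattgTTTGAATTTGAAaaccgg
Kifc1, chr17:33890615-33890644, − strand, positions −11 to 19: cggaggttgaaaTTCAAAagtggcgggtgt
Kif18a, chr2:109280618-109280737, + strand, positions −120 to −1: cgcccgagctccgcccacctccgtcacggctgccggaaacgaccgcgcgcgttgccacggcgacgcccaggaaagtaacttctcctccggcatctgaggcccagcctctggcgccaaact
In *Kif11* and *Kif23* both motifs lie in the stretch shown, and *Kif20b* holds TTTGAA in tandem. *Kif18a*, which differed least between the libraries, has neither motif in the stretch shown. *Kifc1* has TTTGAA at its start, and its RPKM was 22.9 in control and 23.4 in mutant testes. The windows of *Kif2c*, *Kif14* and *Kif4*, all with TTTGAA, belong to annotated starts 3867, 1505 and 328 bases inside the GENCODE gene. *Kifc1* and its near copy *Kifc5b* count as separate matches.

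Other genes of cell division had ratios on the same side. Of 20 such genes that encode no motor, among them cyclins, checkpoint kinases and the proliferation marker *Mki67*, 20 had a log2 ratio below 0 (46.3% of all genes), from −0.54 (*Cenpf*) to −0.01 (*Tpx2*) with a median of −0.22. The counting interval lay below 0 for 15 of them (17.9% of all genes) and included 0 for 5. Their summed RPKM was 1157 in control and 951 in mutant testes. This list, like the role groups and the other lists, was chosen with earlier results of these data known. Its shared direction is therefore a description and not independent evidence for the division kinesins. *Cenpe*, a kinesin of the centromere whose symbol lies outside the rule, had 13.8 and 12.4 RPKM (−0.13, interval −0.23 to −0.05).

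Cell type markers also differed in level between the libraries. The markers of meiotic prophase I (*Sycp1*, *Sycp3*, *Dmc1*, *Smc1b*) were below 0 in 4 of 4, with summed RPKM of 84.1 in control and 54.2 in mutant testes. Of 9 spermatogonial markers with a mean RPKM of at least 1, 6 were below 0 (66.7%, beside 46.3% of all genes) and 3 above. Intervals lay wholly below 0 for *Stra8*, *Sohlh1*, *Dazl*, *Kit* and *Ddx4* (ratios −0.61 to −0.25). They lay wholly above 0 for *Nanos2* (0.49), *Neurog3* (0.47) and *Sohlh2* (0.20). Sums over all 10 were 472 in control and 365 in mutant testes, carried by the 5 genes with intervals below 0, the most abundant ones. By real-time RT-PCR at the same age, the study found similar levels of these spermatogonial mRNAs in the genotypes, and lower levels of the prophase I mRNAs. Of 8 Sertoli cell markers, 7 were above 0 and *Rhox5* was listed at 0 in both libraries, with sums of 3125 and 3416. The lists of the remaining somatic cells had medians of 0.20 for Leydig cells, −0.05 for peritubular cells, −0.13 for endothelial cells, −0.19 for macrophages and −0.32 for red cells. Each of these lists held genes on both sides of 0. Leydig markers ran from −0.17 (*Hsd3b1*) to 0.68 (*Cyp17a1*), and red cell markers from −3.38 (*Slc4a1*) to 0.11 (*Hbb-bs*). In whole testes, fewer cells of a type and less RNA per cell cannot be told apart, and the part of these markers in the ratios of the motor genes was not tested.

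**Figure D3:**
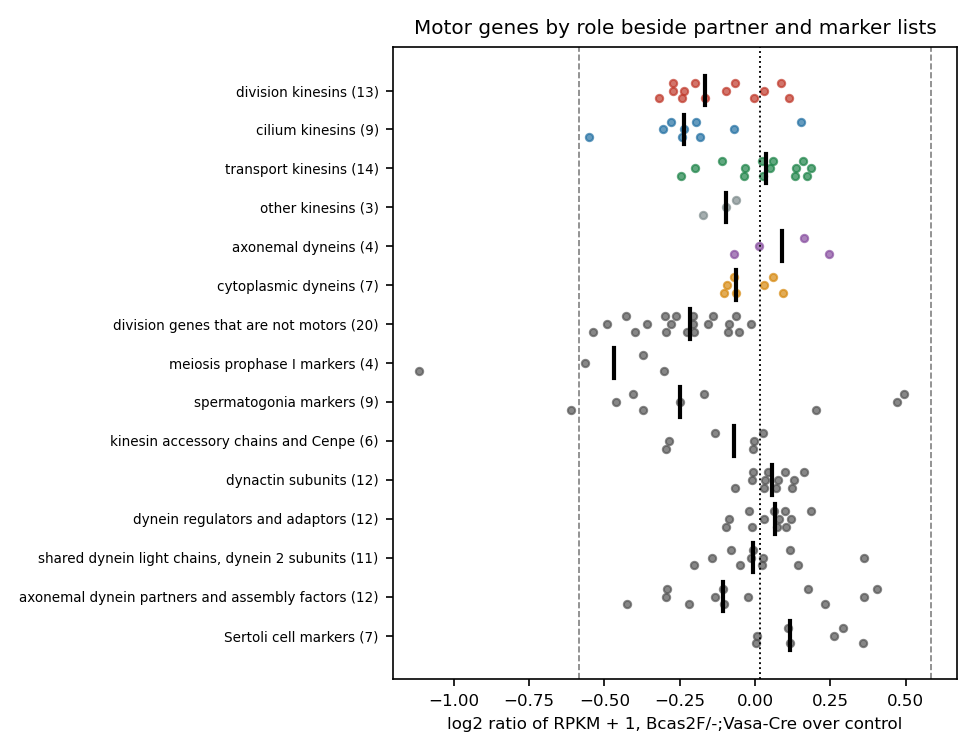
Log2 ratio of RPKM + 1 in Bcas2F/-;Vasa-Cre over control testes (horizontal axis) for each gene (points) of the kinesin and dynein role groups and of 9 partner and marker lists, with the number of genes in brackets. Black bars are medians, the dotted line is the median of all genes (0.02) and dashed lines mark 1.5-fold; medians run from −0.47 for the prophase I markers to 0.12 for the Sertoli cell markers, with −0.17 for the division kinesins.

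Kinesins of cilia and flagella had log2 ratios below 0 in 8 of 9 cases (88.9%, beside 46.3% of all genes), with a median of −0.23 and a range from −0.55 to 0.15. The counting interval lay wholly below 0 for 3 of the 9 (33.3%, beside 17.9% of all genes) and above 0 for 1 (11.1%, beside 19.9%), and it included 0 for the other 5. The summed RPKM was 98.9 in control and 83.3 in mutant testes.

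*Kif3a* and *Kif3b* encode the motor subunits of heterotrimeric kinesin-2, which carries components to the tips of growing cilia, and they stood on opposite sides of 0. *Kif3a* (chr11:53567379-53601967), the second most abundant kinesin, had 60.6 RPKM in control and 48.9 in mutant testes, a log2 ratio of −0.30 (interval −0.41 to −0.21, 1928 and 1510 reads). A ratio at least as low was found in 4.21% of the 3773 genes within 2-fold of its mean RPKM. *Kif3b* (chr2:153291413-153333390) had 11.1 and 12.4 RPKM, a log2 ratio of 0.15 (interval 0.05 to 0.28). For *Kif3b*, 22.3% of the 4909 genes within 2-fold of its mean RPKM had a ratio at least as high. The intervals of the pair did not overlap, but they cover counting error only. The ratio of *Kif3a* to *Kif3b* RPKM was 5.45 in control and 3.93 in mutant testes. *Kifap3*, the accessory subunit that joins them, had 12.3 and 12.5 RPKM.

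The promoter stretches of the pair are shown for comparison, with CCAAT (or ATTGG) and GTTGCC in capitals. GTTGCC is an arm of the X-box, a motif bound by the RFX factors that activate genes of cilia. It was in the windows of 4 of 8 cilium kinesins (50%) and in 12.5% of all windows, in 3 of 5 cytoplasmic dyneins (60%), in 3 of 8 transport kinesins (37.5%) and in 3 of 16 axonemal dyneins (18.8%).
Kif3a, chr11:53567249-53567368, + strand, positions −120 to −1: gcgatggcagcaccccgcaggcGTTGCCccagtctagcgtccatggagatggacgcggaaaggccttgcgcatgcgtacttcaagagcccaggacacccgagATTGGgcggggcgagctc
Kif3b, chr2:153291296-153291415, + strand, positions −120 to −1: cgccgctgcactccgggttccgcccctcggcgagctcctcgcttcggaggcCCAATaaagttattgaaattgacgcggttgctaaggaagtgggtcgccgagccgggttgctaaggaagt
Of these 2 sets of letters, *Kif3a* holds both in this stretch and *Kif3b* holds CCAAT alone. Variants of the X-box arm were not searched, so *Kif3b* cannot be said to lack one.

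*Kif19a* (chr11:114765388-114790739), which limits the length of motile cilia, had the lowest ratio of all 50 genes and few reads. Its RPKM was 1.70 in control and 0.845 in mutant testes, with 56 and 27 reads behind these values. The log2 ratio was −0.55. Without the added 1 its log2 ratio was −1.01 (interval −1.73 to −0.32), and it passed 1.5-fold under smaller pseudocounts and after rescaling.

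*Kif7*, a regulator of Hedgehog signalling at the tip of the cilium, had 5.68 and 4.65 RPKM (−0.24, interval −0.48 to −0.10). *Kif6* (−0.28), *Kif17* (−0.23), *Kif24* (−0.20), *Kif27* (−0.18) and *Kif9* (−0.07) had ratios below 0 with intervals that included 0.

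Transport kinesins stood near the background of all genes. Of 14, 9 were above 0 (64.3%, beside 53.7% of all genes) and 5 below, with a median of 0.04, against 0.02 for all genes, and a range from −0.25 to 0.19. Counting intervals lay above 0 for 4 (28.6%) and below 0 for 2 (14.3%), beside 19.9% and 17.9% of all genes. The summed RPKM was 350 in control and 378 in mutant testes, mostly through *Kif5b*.

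The kinesin-1 heavy chains *Kif5a*, *Kif5b* and *Kif5c* carry vesicles, mitochondria and RNA granules. They were above 0 in 3 of 3, beside 53.7% of all genes, and only *Kif5b* had an interval wholly above 0. *Kif5b* had a log2 ratio of 0.17 (interval 0.13 to 0.22, 7727 and 8450 reads), and 7.14% of the 1008 genes within 2-fold of its mean RPKM were at least as high. *Kif5c* had 32.7 and 33.2 RPKM (0.02, interval −0.10 to 0.15), and *Kif5a*, the most neuronal of them, had 2.98 and 3.14 (0.06, interval −0.13 to 0.29).

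*Kif21a*, a motor that also slows microtubule growth at the cell cortex, had the highest ratio among kinesins with a mean RPKM of at least 1, with 16.8 RPKM in control and 19.3 in mutant testes (0.19, interval 0.11 to 0.28). Its close relative *Kif21b* had the lowest ratio of the group, with 7.21 and 5.92 RPKM (−0.25, interval −0.47 to −0.10). These relatives thus stood on opposite sides of 0, as did *Kif3a* and *Kif3b*.

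Among the kinesin-3 motors of vesicle transport, *Kif1a* (0.16, interval 0.01 to 0.34) and *Kif1b* (0.14, interval 0.06 to 0.22) were higher, and *Kif16b*, which moves early endosomes, was lower (−0.20, interval −0.37 to −0.07). *Kif1c* had 29.7 and 29.0 RPKM (−0.03, interval −0.11 to 0.04). *Kif13a*, *Kif13b*, *Kif3c*, *Kifc2* and *Kifc3* had log2 ratios between −0.11 and 0.13 with intervals that included 0. Of the exon bases of *Kif3c*, 35.3% are shared with an antisense gene.

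Of the 6 kinesins with other roles, 3 had a mean RPKM of at least 1. *Kif2a*, a depolymerase that acts at spindle poles and in neurites, had 46.2 and 43.1 RPKM (−0.10, interval −0.19 to −0.01), and 19.2% of its exon bases are shared with *Dimt1* on the opposite strand. *Kif26a*, a kinesin without motor activity, had 13.7 and 12.1 RPKM (−0.17, interval −0.32 to −0.05). *Kif1bp* had 32.7 and 31.2 RPKM (−0.06, interval −0.19 to 0.06). *Kif12* had 1 read in control and 10 in mutant testes, a log2 ratio of RPKM of 3.37 (interval 0.55 to 8.80). *Kif26b* and *Kif28* had at most 13 reads in either library.

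**Figure D4:**
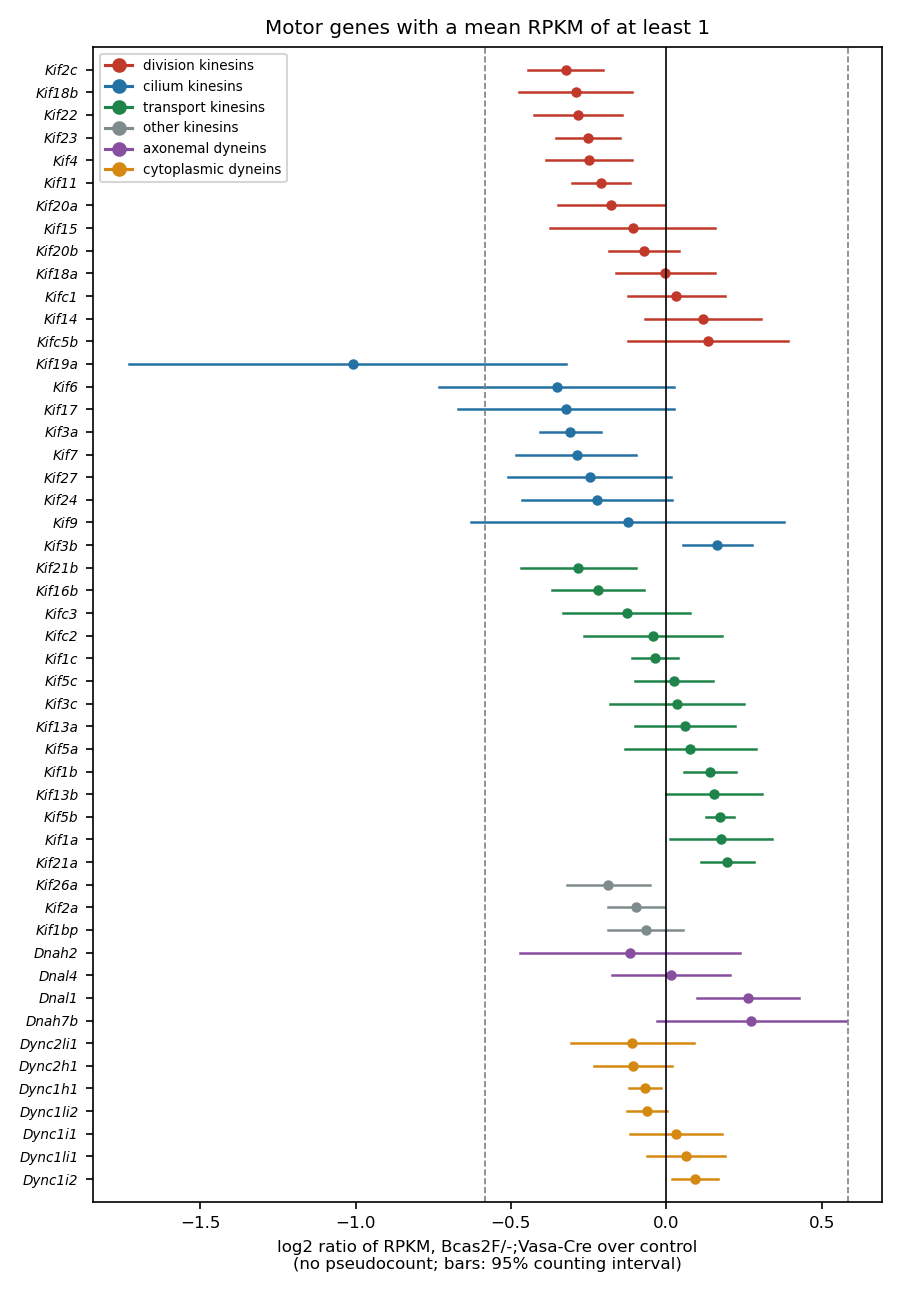
Log2 ratio of RPKM without a pseudocount, Bcas2F/-;Vasa-Cre over control testes (horizontal axis), for the 50 kinesins and dyneins with a mean RPKM of at least 1, grouped and coloured by role; bars are 95% counting intervals and dashed lines mark 1.5-fold. Of the 13 division kinesins 7 have bars wholly left of 0, Kif3a and Kif3b lie on opposite sides, and Kif19a has the lowest value and the widest bar.

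By family, members of kinesin-6 (*Kif20a*, *Kif20b*, *Kif23*), kinesin-8 (*Kif18a*, *Kif18b*, *Kif19a*) and kinesin-13 (*Kif2a*, *Kif2c*, *Kif24*) were below 0 in 3 of 3 each, beside 46.3% of all genes. In each of these families 1 member (*Kif20b*, *Kif18a* and *Kif24*) had an interval that included 0. Kinesin-3 had 5 of 7 above 0 (beside 53.7% of all genes), of which *Kif13a*, *Kif13b* and *Kif14* had intervals that included 0. Kinesin-4 had 4 of 5 below, of which *Kif27* had such an interval. The families are small, and differences between them were not tested.

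Cytoplasmic dynein was nearly equal in both libraries. The 7 subunits had log2 ratios between −0.10 and 0.09. Of these, 4 were below 0 (57.1%, beside 46.3% of all genes). Their summed RPKM was 300.1 in control and 295.6 in mutant testes. *Dync1h1* had 133.8 RPKM in control and 127.6 in mutant testes, a log2 ratio of −0.07 (interval −0.12 to −0.02), the only interval of a subunit wholly below 0. *Dync1i2*, the more abundant intermediate chain, had 61.2 and 65.3 RPKM (0.09, interval 0.02 to 0.17), the only one wholly above 0. The intermediate chains bind dynactin and cargo.

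*Dync1i1*, the neuronal type of intermediate chain, had 17.2 and 17.6 RPKM (0.03, interval −0.12 to 0.18). The light intermediate chains, which link the motor to activating adaptors, had 43.3 and 41.4 RPKM for *Dync1li2* (−0.06, interval −0.13 to 0.00) and 20.3 and 21.2 RPKM for *Dync1li1* (0.06, interval −0.06 to 0.19). All 3 intervals included 0.

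Dynein 2 returns intraflagellar transport trains to the cell body. Its heavy chain *Dync2h1* had 7.23 RPKM in control and 6.71 in mutant testes (−0.09, interval −0.23 to 0.02). *Dync2li1* had 16.9 and 15.7 RPKM (−0.10, interval −0.31 to 0.09), the lowest ratio of the cytoplasmic dyneins.

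The partners of cytoplasmic dynein had medians close to 0, with single genes further from it. The 12 subunits of dynactin, the cofactor that dynein needs for long movements, had a median log2 ratio of 0.06. Of these, 9 were above 0 (beside 53.7% of all genes) and 3 below, and 4 intervals lay wholly above 0. The 12 regulators and adaptors, such as *Pafah1b1* (Lis1) and the Hook proteins, had a median of 0.07, with 3 intervals above 0. For 11 of 12 light chains and dynein 2 subunits that reached the minimum the median was −0.01, with a range from −0.20 (*Wdr34*) to 0.36 (*Tctex1d2*). Their intervals lay below 0 for 2 and above 0 for 2. Over all genes, intervals lay below 0 for 17.9% and above 0 for 19.9%. In each of these lists 0 genes were past 1.5-fold. The light chains and other accessory subunits of kinesins, with *Cenpe*, had a median of −0.07. Of these 6 genes, 5 were below 0, beside 46.3% of all genes, and 4 had intervals that included 0.

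Axonemal heavy chains had low levels. Of 17 axonemal dynein genes, 4 had a mean RPKM of at least 1, and of the 14 heavy chains only *Dnah2* and *Dnah7b* did. The other 12 heavy chains had at most 0.814 RPKM in control and 0.671 in mutant testes. They had 2 to 207 reads in control and 5 to 169 in mutant testes. The summed RPKM of the 14 heavy chains was 6.73 in control and 6.13 in mutant testes. Markers of spermatids were low too, with 2 of 8 at a mean RPKM of at least 1, and of 9 markers of motile ciliated cells 4 reached it.

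*Dnal1* (chr12:84114366-84147498), a light chain of the outer dynein arm, had 14.8 RPKM in control and 17.7 in mutant testes, the highest ratio of all 50 genes (0.25, interval 0.10 to 0.43, 561 and 653 reads). *Dnal4*, another light chain, had 23.9 and 24.1 RPKM (0.01, interval −0.18 to 0.20). Both had far higher RPKM than each of the axonemal heavy chains, although levels of different genes depend on the gene lengths used.

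The inner-arm heavy chain *Dnah2* had 1.54 and 1.43 RPKM (−0.07, interval −0.47 to 0.24). *Dnah7b* had 1.37 and 1.65 RPKM (0.16, interval −0.03 to 0.58). Its coding transcript is 96.9% identical to that of *Dnah7a* and 97.3% identical to that of *Dnah7c*, so these reads may come from any of them.

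Below the minimum, *Dnah1* (135 and 96 reads), *Dnah9* (38 and 20) and *Dnah11* (22 and 9) had fewer reads in mutant testes with intervals below 0, and *Dnah12* had more (18 and 34). *Dnali1*, the inner-arm light intermediate chain, had 10 and 9 reads. For the other 8 heavy chains below the minimum the interval included 0. The 23 axonemal partners and assembly factors had 12 genes at a mean RPKM of at least 1, with a median of −0.11 and both directions present, from −0.43 for *Ccdc40* to 0.40 for *Ccdc114*.

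**Figure D5:**
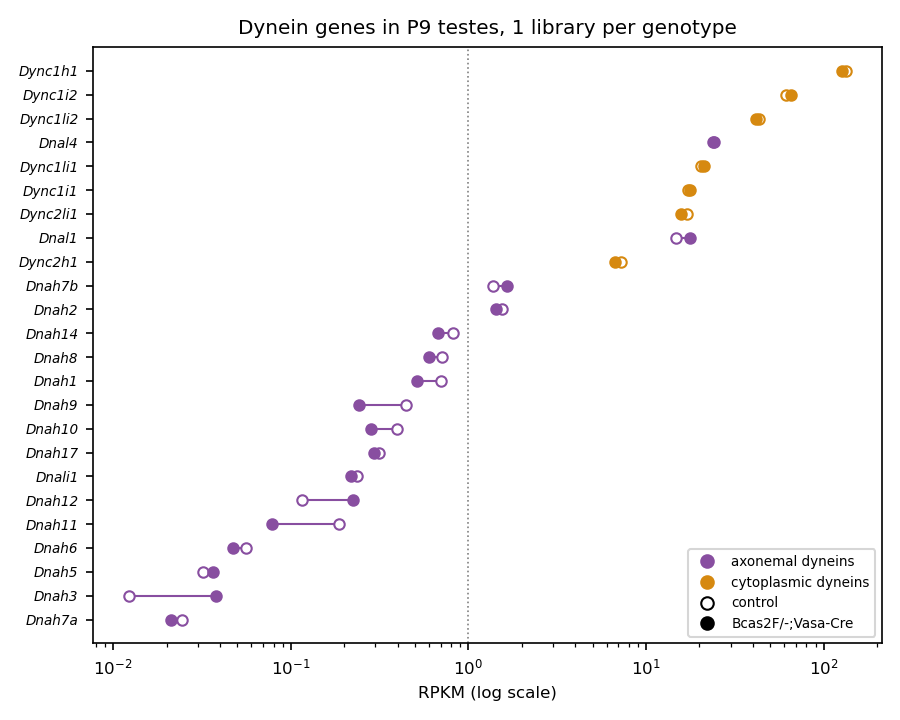
RPKM on a log scale (horizontal axis) of the 24 dynein genes in the control library (open circles) and the Bcas2F/-;Vasa-Cre library (filled circles), ordered by mean RPKM and coloured by role, with a dotted line at 1 RPKM. All 7 cytoplasmic dyneins lie right of the line with nearly overlapping circles, and 13 axonemal genes lie left of it.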

How the data were processed

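RNA-seq was made from whole P9 testes of 1 control and 1 *Bcas2F/-;Vasa-Cre* sample. The authors removed adaptors and low-quality reads, aligned the pairs with TopHat2 2.0.9 (mm10, per the submitters' processing notes), used HTSeq to count reads on genes, and deposited these as RPKM values. RPKM is scaled to gene length and library size, not to RNA composition. The annotation release and gene lengths are not given in the sources used here.

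Entries were matched by Ensembl identifier to GENCODE M21 (37692 of 39695). Log2 ratios used RPKM + 1 and a mean RPKM of at least 1. Whole reads were recovered by finding the gene length, nearest to the mean transcript length, at which both libraries gave whole numbers; it was within 1% of that mean for 24 of the 67 genes, and for any gene whose length the authors took otherwise, reads could be wrong by a factor, and the intervals with them. The recovered reads summed to 101% of either library. The procedure was tested on simulated data in which each gene had its mean transcript length. That test therefore does not cover genes with another length.

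Members, role groups and partner and marker lists were chosen with earlier results of these data known. Any member could be named. Values were given for all members past 1.5-fold, the 8 kinesins and 6 dyneins of highest mean RPKM, the extremes of each role group, cytoplasmic dynein and *Bcas2*, and further members were named to account for each group. Near copies were sought with BLAST 2.17.0 (at least 90% identity over 50% of the transcript). Of the promoter windows, 42 of 54 began within 100 bases of the GENCODE gene start. Protein sequences were not used here. Alternatives were pseudocounts of 0.1 and 0.01, centring on the median of all genes, rescaling RPKM to a sum of 1000000, no minimum or a minimum of 5 on mean RPKM, at least 30 reads, a 2-fold threshold, and 1.5-fold with the counting interval. Python 3.11.15, numpy 2.4.6, pandas 2.3.3, scipy 1.17.1 and matplotlib 3.10.9 were used.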

Additional observations from a re-analysis of the deposited data

How the results depend on the processing

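With 1 library per genotype no replicate could be left out. No paired analysis was possible because each group holds 1 sample. The number of kinesins more than 1.5-fold lower was 1 instead of 0, namely *Kif19a*, with a pseudocount of 0.1 (log2 ratio −0.93), a pseudocount of 0.01 (−1.001) and RPKM rescaled to a sum of 1000000 (−0.64), and it stayed 0 under the other alternatives, as did the counts of kinesins that were higher and of dyneins in either direction. Over all genes, the numbers lower and higher were 457 and 454 with a pseudocount of 0.1, 485 and 491 with 0.01, 468 and 511 without a minimum RPKM, 104 and 46 with a minimum of 5, and 56 and 63 at 2-fold. They were 356 and 434 after rescaling, 180 and 88 with at least 30 reads, and 186 and 96 with the counting interval on the same side. In the main setting they were 251 and 233. The median of the division kinesins ranged from −0.20 to −0.13, of the cilium kinesins from −0.29 to −0.22 and of the transport kinesins from 0.02 to 0.06. The dynein median (0.01) took the other sign under 3 of 7 alternatives, with values down to −0.03, and the axonemal dynein median under 2 of 7, down to −0.02. Of 100 log2 ratios of single genes recomputed, 1 took the other sign (*Dnal4*, −0.00097 after centring on the median of all genes). The cause of these shifts was not tested. Depth limits the genes with few reads, such as *Kif12* (1 and 10 reads), *Dnali1* (10 and 9) and *Kif19a* (56 and 27).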

Other observations

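Non-coding entries with motor gene symbols were left out by the rule and had few reads. The antisense gene *Dnah2os* had 13 reads in control and 6 in *Bcas2F/-;Vasa-Cre* testes, and *Kif16bos*, antisense to *Kif16b*, had 4 and 3. The pseudogene *Kif4-ps* had 0 and 5 reads, *Kifc5c-ps* had 0 and 1, and *Kif22-ps* was listed at 0 in both libraries. At this depth no difference was detectable for any of them.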
